A study of Mus musculus with 10 samples.

Results

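Fam63a and Wt1 each lie next to a run of CpGs listed as differing in methylation with housing in one kind of lymph node, and 7 of the 2132 differentially methylated regions (DMRs) listed by the study carry one of these names. They were chosen by the nearest gene name in the 4 DMR tables: 1 DMR named Fam63a, called for housing in peripheral lymph nodes (pLN), and 6 named Wt1, of which 1 was called for housing in mesenteric lymph nodes (mLN), 3 for location in SPF mice and 2 for location in germ-free mice. Together they cover 111 of the 24182 distinct CpGs in DMRs, 36 at Fam63a and 75 at Wt1. All members were therefore selected on methylation, and their values in the contrast that called them are given as a description, without a test.

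The DNA came from non-endothelial stromal cells of BALB/c mice, sorted as podoplanin-positive cells without the haematopoietic marker CD45, the endothelial marker CD31 or the erythroid marker Ter119 for this assay (the sorting protocol in the labels names CD24 in place of Ter119). Whole-genome bisulfite sequencing gave 3 libraries of gut-draining mLN and 3 of skin-draining pLN from adult specific pathogen-free mice (mLN-SPF, pLN-SPF), and 2 libraries of each node from adult germ-free mice (mLN-GF, pLN-GF). The SPF animals were of a CD90.1 BALB/c line bred at one institute, whereas the GF animals were BALB/c mice delivered by caesarean section at another and kept in isolators at either place, and the age ranges stated for SPF and GF mice overlapped but were not the same, so housing, line, colony and age cannot be told apart. The authors left out 1 further library of mLN-GF and 1 of pLN-GF as outliers, and the spread between GF libraries is that of the libraries kept; the study states that bulk sequencing replicates came from independent experiments, but not which animals each library holds.

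Cytosine methylation at CpG dinucleotides is usually low at active or poised promoters and high in gene bodies. Fam63a, now named Mindy1, encodes a deubiquitinase that trims long chains of lysine-48-linked ubiquitin. Wt1 encodes the zinc finger transcription factor WT1, known from kidney, gonad, spleen and mesothelium, and is annotated with a start site inside the gene besides that at its 5′ end. A methylation level of sorted cells is an average over cells, so a change in every cell and a change in the mix of cell types cannot be told apart in these libraries.

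The Fam63a DMR lay at chr3:95283300-95283791 (GRCm38). Of its 36 CpGs, 30 were in the first, untranslated exon of the coding transcripts Mindy1-201 and Mindy1-202, which starts at position 95282944, and 6 were beyond the exon end, in the intron of these transcripts. The start of the noncoding transcript Mindy1-206 (95283602) coincided with the last of the exonic CpGs. The DMR was rich in CpGs, with 73.0 CpGs per kb and a GC content of 61.3%, against medians of 21.1 CpGs per kb and 46.6% over the 336 DMRs on chromosomes 2 and 3. The intronic end is printed because the methylation of the GF libraries ended before it or within its first CpGs; it is the forward strand of chr3:95283626-95283792, with the measured CpGs in capitals.

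Fam63a intronic end: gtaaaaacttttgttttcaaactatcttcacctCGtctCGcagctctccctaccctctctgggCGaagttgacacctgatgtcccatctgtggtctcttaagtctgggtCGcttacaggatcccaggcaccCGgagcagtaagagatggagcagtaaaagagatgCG

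The Wt1 housing DMR lay at chr2:105132426-105132672 (GRCm38), 1543 bp downstream of an internal start site of Wt1 (Wt1-201 and Wt1-202, position 105130883) and within the intron of the coding transcripts, in a stretch that the retained-intron transcript Wt1-206 counts as exon. It held 16 CpGs in 247 bases (64.5 CpGs per kb, GC content 56.5%). It is printed whole on the forward strand, extended by 1 base to complete the last CpG (chr2:105132426-105132673), since all 16 CpGs had a higher mean in mLN-GF than in mLN-SPF.

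Wt1 housing DMR: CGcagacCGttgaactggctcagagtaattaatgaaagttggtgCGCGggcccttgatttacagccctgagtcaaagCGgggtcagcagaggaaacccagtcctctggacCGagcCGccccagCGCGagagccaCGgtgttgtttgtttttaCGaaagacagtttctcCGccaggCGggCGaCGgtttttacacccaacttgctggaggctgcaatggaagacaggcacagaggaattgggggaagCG

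The 5 location DMRs of Wt1 followed downstream, 2 pairs of them overlapping. In SPF mice DMR A was at chr2:105132996-105133827 (38 CpGs, over exon 2, exon 3 and the introns beside them), DMR B at chr2:105134139-105134181 (3 CpGs) and DMR C at chr2:105134625-105135508 (18 CpGs), the latter pair intronic. In GF mice DMR A was at chr2:105133110-105133607 (26 CpGs) and DMR B at chr2:105134851-105135296 (9 CpGs), both lying inside SPF DMRs A and C. The stretch of intron shared by both DMRs A (chr2:105133110-105133401, up to the start of exon 3) is shown as intron sequence that both calls cover, and SPF DMR B (chr2:105134139-105134182) because its direction in GF mice turned with single libraries. Both are printed on the forward strand with measured CpGs in capitals.

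Wt1 location DMRs A, shared intron: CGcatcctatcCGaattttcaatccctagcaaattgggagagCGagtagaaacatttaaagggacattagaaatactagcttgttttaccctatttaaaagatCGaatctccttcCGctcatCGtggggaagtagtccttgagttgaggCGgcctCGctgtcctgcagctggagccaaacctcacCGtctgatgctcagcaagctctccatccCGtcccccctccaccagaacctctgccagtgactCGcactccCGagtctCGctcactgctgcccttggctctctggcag

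Wt1 SPF location DMR B: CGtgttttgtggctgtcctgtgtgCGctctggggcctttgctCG

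Over all CpGs in DMRs, mean methylation lay between 48.2% and 52.2% in the 10 libraries, and between 99.6% and 99.9% of CpGs had a value in each; the read depth behind a value was not used here, so no counting error is attached to single CpGs. No adjusted p of limma passed 0.05 for SPF against GF at any of the 2132 DMRs, in mLN, in pLN or averaged over both nodes (0% called each time). The unadjusted p was under 0.05 at 144 of the 2132 DMRs in mLN, 116 in pLN and 102 in the average. A share of 0.05 of tests passes that threshold without any difference, so these counts are not read as housing differences. The logit scale called 2 DMRs in mLN, and leaving out pLN-GF 2 called 1 in pLN; none of these was a DMR of Fam63a or Wt1. The DMRs were themselves chosen for differences, so these shares describe the table and not the genome.

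**Figure D1:**
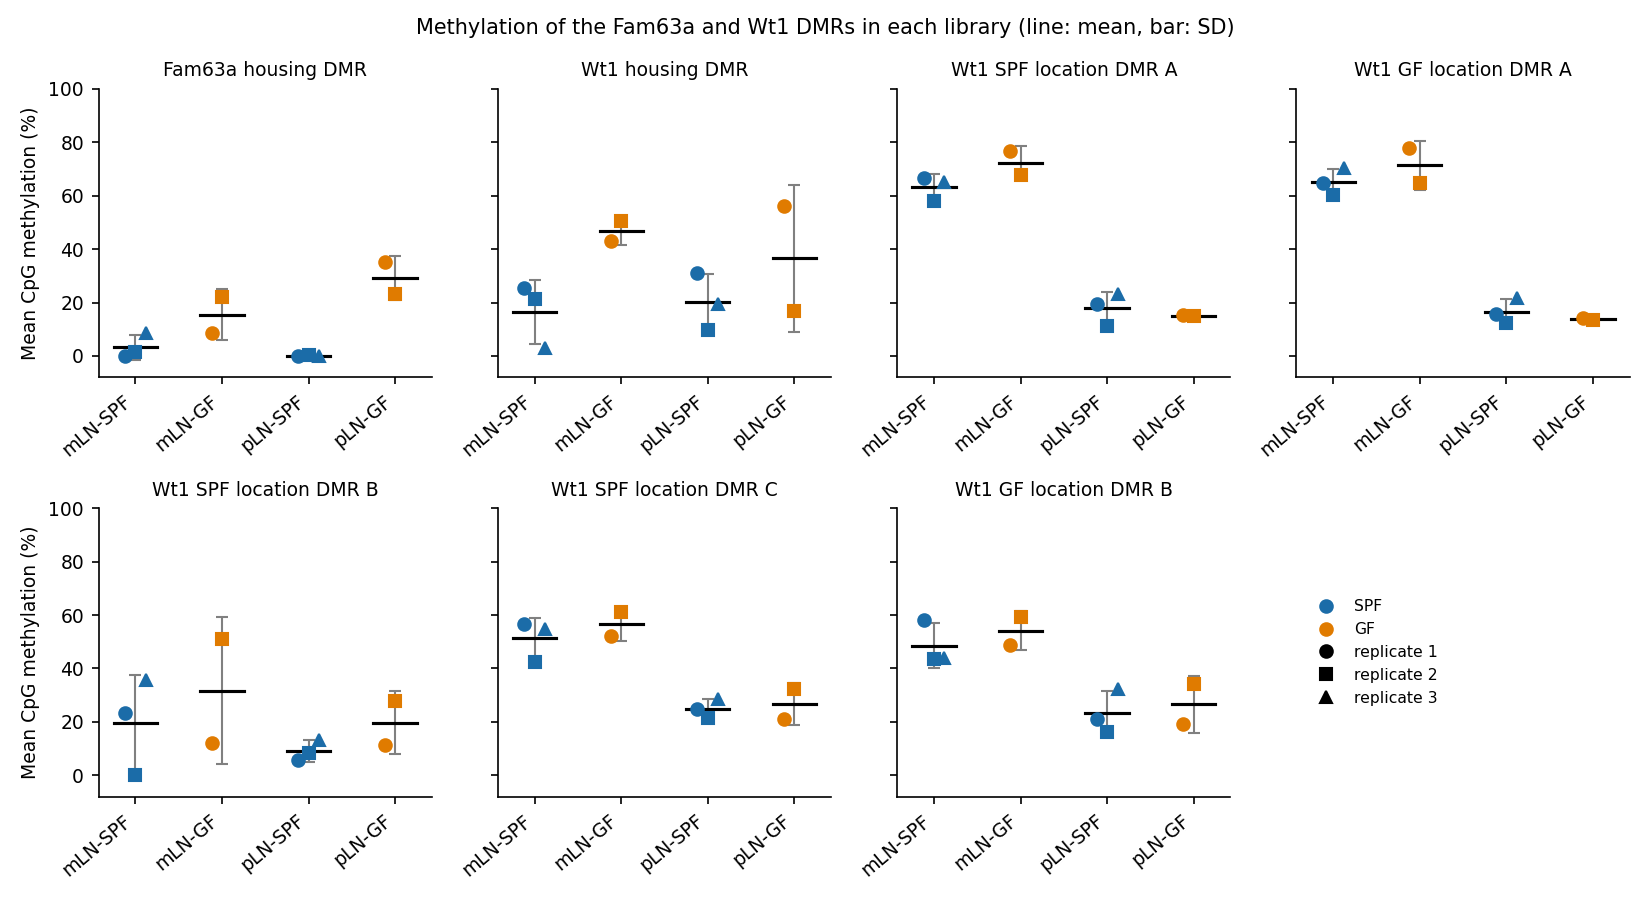
Mean CpG methylation in percent (y axis) of the 7 DMRs in each library, by group (x axis); points are libraries, with circles, squares and triangles for replicates 1, 2 and 3, black lines are group means and grey bars SD. At Fam63a the 3 pLN-SPF libraries lie at or below 0.185%, and at the Wt1 housing DMR the 2 pLN-GF libraries lie at 56.1% and 17.0%.

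At Fam63a the 30 exonic CpGs of the DMR were free of methylation in the pLN-SPF libraries and nearly so in 2 of the 3 mLN-SPF libraries. They carried methylation in the 4 GF libraries, to a different extent in each. The exon upstream of the DMR was not analysed. The mLN-SPF 3 library lay close to mLN-GF 1. In pLN, the node in which the DMR was called, the 3 pLN-SPF libraries had 0%, 0.185% and 0% and the 2 pLN-GF libraries 35.1% and 23.4%. Every pLN-GF library was above every pLN-SPF library, and the difference was -29.2 percentage points, SPF minus GF. This is the difference that selected the DMR, and leaving out single libraries moved it between -35.0 and -23.3 points.

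The libraries that the call did not use are those of mLN, although whether they share animals with the pLN libraries is not stated. The mLN-SPF libraries had 0%, 1.32% and 8.69%, and the mLN-GF libraries 8.75% and 22.3%. The GF libraries were higher, but mLN-SPF 3 and mLN-GF 1 were almost equal. The difference was -12.2 percentage points (SE 5.33) with an unadjusted p of 0.0427 and an adjusted p of 0.716 in limma over all 2132 DMRs. The exact permutation test gave p = 0.2 (two-sided, 3 against 2 libraries, smallest possible p 0.1). Without mLN-GF 2 the difference was -5.41 points, and without mLN-GF 1 it was -18.9 points. For orientation, 64 of the 2132 DMRs had a lower SPF minus GF difference in mLN, where the median over all DMRs was 0.75 points. Of the 16 DMRs called for housing in pLN, 10 differed in mLN in the direction of the call, and Fam63a had the second largest such difference (rank 2) after Stim2 (14.1 points).

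CpG by CpG, the methylation of the GF libraries within the DMR was confined to the exon, except in pLN-GF 2. That library had 8.33% at the last exonic CpG (95283602) and 7.69% at the nearest intronic CpGs, 95283659 and 95283664. Over the 30 exonic CpGs the library means were 42.1% and 27.5% in pLN-GF, 0% in each of the 3 pLN-SPF libraries, 10.5% and 26.7% in mLN-GF, and 0%, 0.42% and 10.4% in mLN-SPF. Over the 6 intronic CpGs, pLN-GF 1 and both mLN-GF libraries were at 0%, and the highest mean was 5.83%, in mLN-SPF 2. All 30 exonic CpGs had a higher GF than SPF mean in each node, whereas of the 6 intronic CpGs 2 did so in pLN and none in mLN.

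Within the exon, window means in pLN-GF were lower on the 3′ side than on the 5′ side. In pLN-GF 1 the mean was 60.4% over the 10 CpGs of the first 100 bases, 43.1% over the 11 CpGs of the next 100 and 19.7% over the 8 CpGs after that. In pLN-GF 2 the same 3 windows had 33.1%, 32.0% and 16.9%. The first CpG of the DMR (95283300) already had 57.1% and 12.5% in pLN-GF, so the upstream edge of the methylated stretch lies outside the CpGs analysed here. The largest difference in pLN (-52.1 points) was shared by 3 CpGs, at 95283310, 95283363 and 95283369; at the latter pair pLN-GF had 62.5% and 41.7%. The smallest difference was 0 at 4 intronic CpGs, 95283689, 95283735, 95283757 and 95283791, the last of the DMR; at the first of these mLN-SPF 2 had 25%, and at the other 3 all 10 libraries were at 0%.

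The 2 mLN-GF libraries did not share that slope. In mLN-GF 2 all 30 exonic CpGs were methylated, between 10% and 38.5%, with means of 25.6%, 22.8% and 34.3% over the 3 windows. In mLN-GF 1, 17 of the 30 were methylated, with means of 11.6%, 17.0% and 0%. Among SPF libraries, mLN-SPF 3 was the only one with methylation over a run of exonic CpGs, 17 of 30 with a maximum of 28.6%, and its window means were 14.2%, 14.6% and 1.39%. The other mLN-SPF libraries had 0 and 1 methylated exonic CpG, and the pLN-SPF libraries had none.

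**Figure D2:**
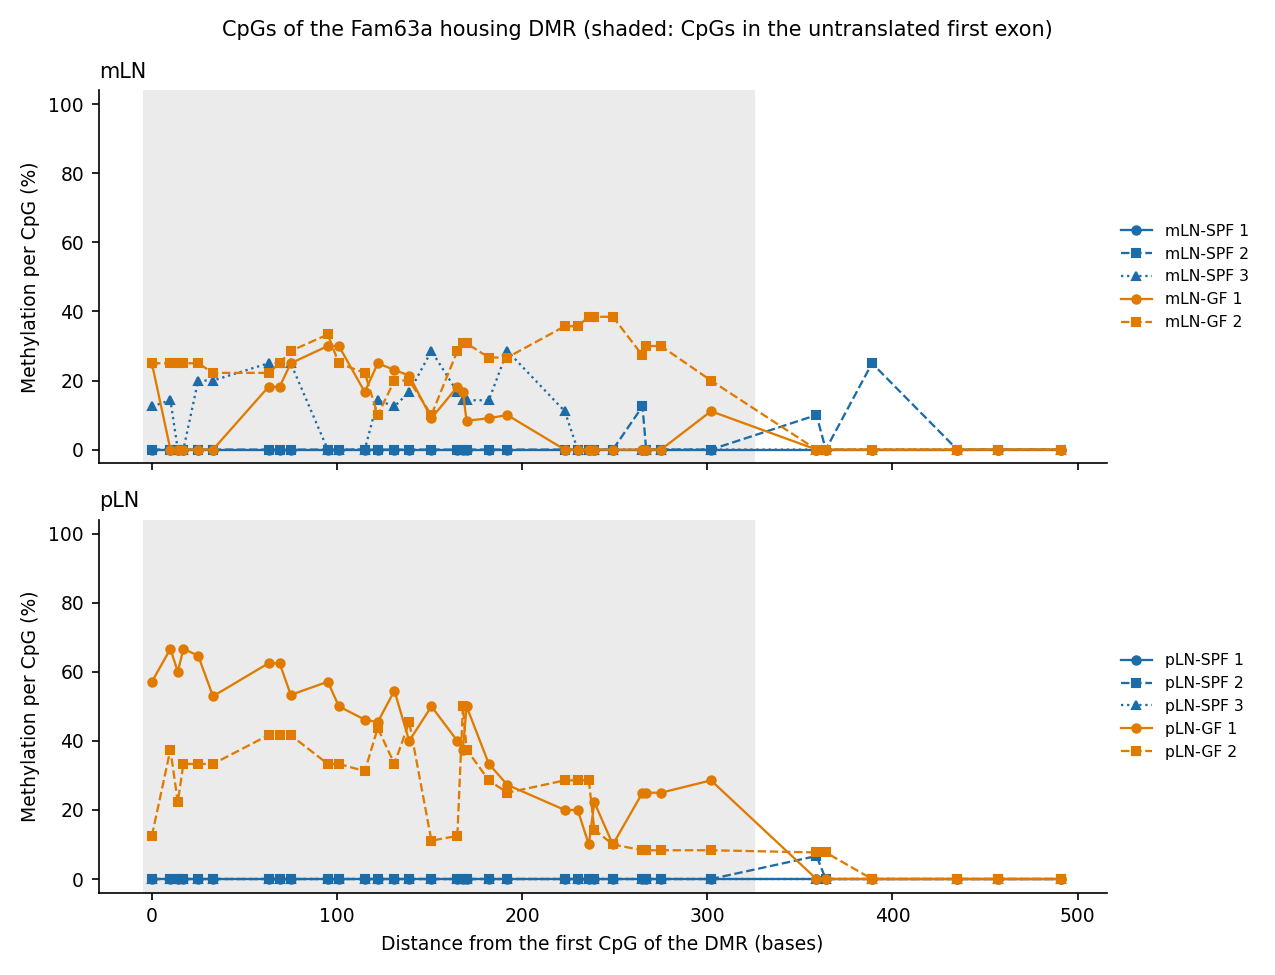
Methylation in percent (y axis) of each CpG of the Fam63a housing DMR against its distance in bases from the first CpG (x axis), for mLN (top) and pLN (bottom), 1 line per library, SPF in blue and GF in orange; the shading marks the untranslated first exon. The pLN-GF 1 line starts at 57.1% and is lower towards the end of the exon, pLN-GF 2 starts at 12.5% and peaks at 50%, both are at 0% at the last 4 CpGs, and mLN-SPF 3 runs among the mLN-GF libraries over the first part of the exon.

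All SPF and GF libraries of mLN were separated at 9 of the 36 CpGs, all 9 in the exon and with GF above SPF, where 7.15% of 24000 CpGs with a value in all 5 mLN libraries were separated in that direction. The number rests on single libraries: it was 17 without mLN-SPF 3 and 25 without mLN-GF 1. In pLN, the node of the call, 30 of 36 CpGs were separated (9.51% of 23962 CpGs), which is given without a reading. No CpG of the DMR passed an adjusted p of 0.05 for SPF against GF in mLN in the limma fit over 24158 CpGs (0% of all CpGs called, also in pLN); 3 of 36 had an unadjusted p under 0.05, against 1501 of 24158, and the smallest adjusted p was 0.732. Neighbouring CpGs share reads, so these counts are not counts of independent sites.

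Between the nodes, the Fam63a DMR had opposite signs in the 2 housing conditions, with mLN minus pLN at 3.28 points in SPF and -13.7 points in GF mice. The latter contains the pLN-GF libraries that selected the DMR and is given without a test. Weighted over SPF and GF libraries so as to be independent of the housing contrasts, mLN minus pLN was -3.53 points (SE 3.69, limma adjusted p = 0.371, where 92.2% of the 2132 DMRs were called, most of them listed for location). The DMR means were 3.34% ± 4.69 (SD, n = 3) in mLN-SPF and 0.062% ± 0.107 (n = 3) in pLN-SPF, but 15.5% ± 9.55 (n = 2) in mLN-GF and 29.2% ± 8.30 (n = 2) in pLN-GF. The SD of pLN-SPF was smaller than that of 2130 of 2132 DMRs, at a level near 0; the SD of mLN-GF was larger than that of 86.4% of DMRs.

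At the Wt1 housing DMR, mLN-GF was higher than mLN-SPF at each of the 16 CpGs, while the pLN libraries did not follow their housing. In mLN, the node of the call, the SPF libraries had 25.3%, 21.2% and 2.81% and the GF libraries 43.1% and 50.6%. The groups did not overlap, and the difference that selected the DMR was -30.4 percentage points, between -34.8 and -23.6 when single libraries were left out. The spread within mLN-SPF (SD 12.0) came mostly from mLN-SPF 3, in which 14 of the 16 CpGs were at 0%.

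In pLN, which the call did not use, the SPF libraries had 31.1%, 9.85% and 19.4% and the GF libraries 56.1% and 17.0%. Of the GF libraries, 1 was above all SPF libraries and the other was below 2 of them. SPF minus GF was -16.4 points (SE 10.5, unadjusted p = 0.143, adjusted p = 0.816 in limma), and the exact permutation test gave p = 0.5. Without pLN-GF 1 the sign turned, to 3.12 points, and without pLN-GF 2 the difference was -36.0 points. The SD between the 2 pLN-GF libraries, 27.7 points, was exceeded at 4 of the 2132 DMRs, where the median SD in pLN-GF was 4.01 points. Among the 17 DMRs called for housing in mLN, 8 differed in pLN in the direction of the call, and the Wt1 DMR had the largest such difference (rank 1), a rank that depends on pLN-GF 1.

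**Figure D3:**
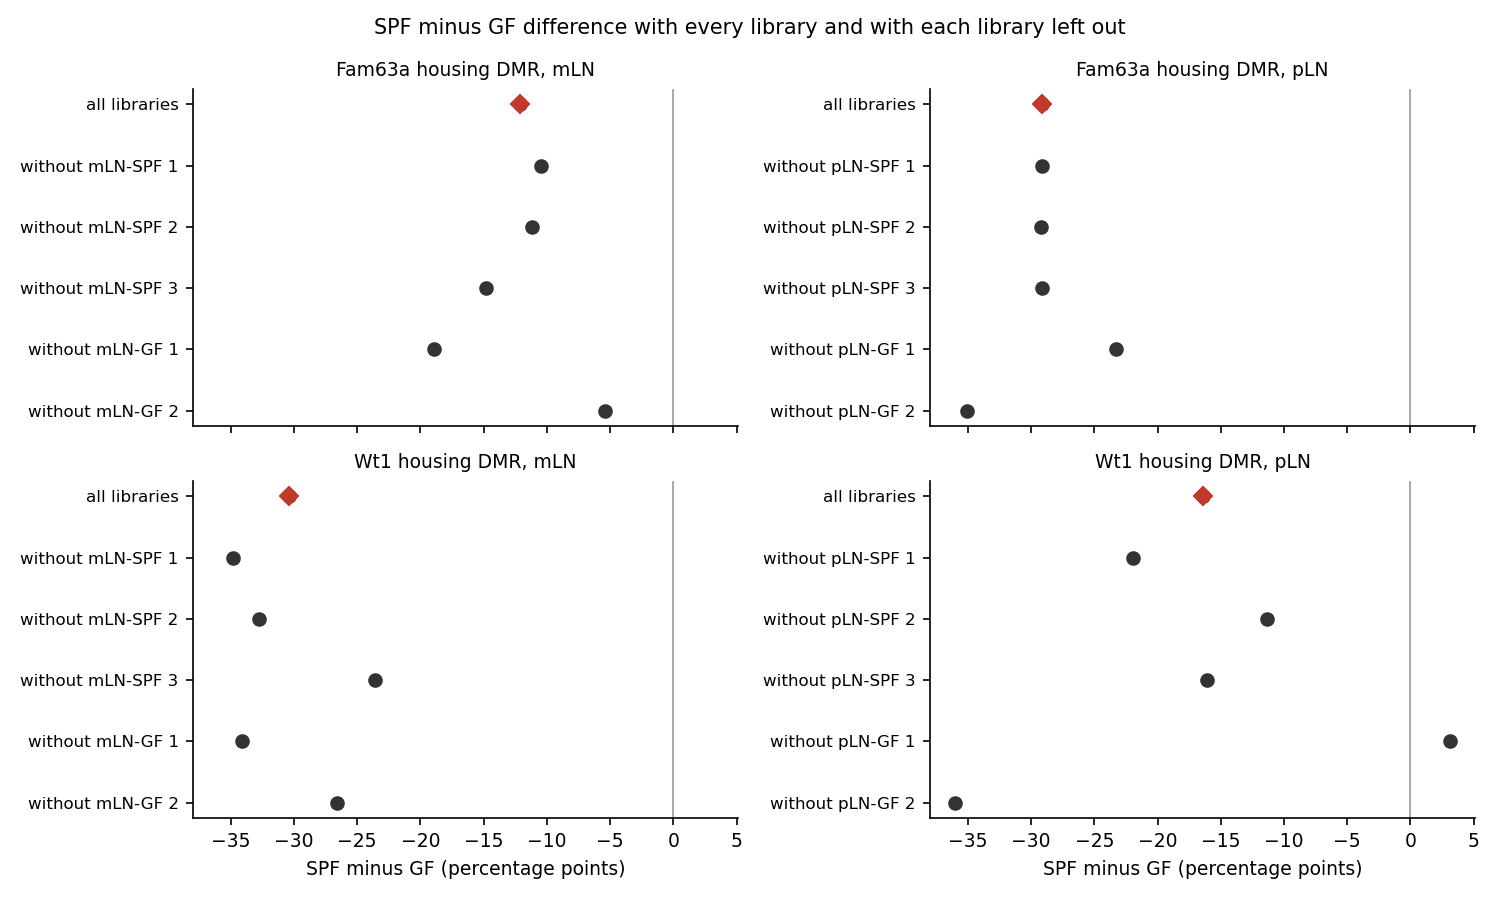
SPF minus GF difference in percentage points (x axis) of the Fam63a and Wt1 housing DMRs in mLN and pLN, with all libraries (red diamond) and with each library left out in turn (black points, y axis). Every point lies below 0 except the Wt1 DMR in pLN without pLN-GF 1, at 3.12 points.

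The CpGs that carried the Wt1 difference in mLN were towards the 3′ end. The largest difference was at the last CpG (105132672), with 40%, 0% and 20% in mLN-SPF and 88.9% and 71.4% in mLN-GF. The smallest was at 105132536, with 25%, 28.6% and 0% against 25% and 28.6%, so that the difference there was set by mLN-SPF 3 alone. The first CpG (105132426) had 33.3%, 25% and 25% in mLN-SPF and 50% and 36.4% in mLN-GF. In mLN, the node that selected the DMR, 10 of the 16 CpGs had both GF libraries above all SPF libraries (7.15% of all CpGs), which is given without a reading.

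In pLN-GF 1, 4 neighbouring CpGs from 105132560 to 105132601 were at 100%, the highest values of the DMR, and the mean over the 10 CpGs from 100 to 199 bases into the DMR was 68.3%. In pLN-GF 2 the mean over the same 10 CpGs was 12.5%, and 8 of all 16 CpGs were at 0%, although its last CpG had 66.7%. Over the whole DMR the 2 pLN-GF libraries were 39.1 points apart, and the 3 pLN-SPF libraries spanned 21.2 points. Mean methylation was higher in pLN-GF at 13 of the 16 CpGs, but both GF libraries were above all SPF libraries at 3, at 105132472, 105132578 and 105132672 (9.51% of all CpGs in that node). This count was 7 without pLN-SPF 1 and 14 without pLN-GF 2. None of the 16 CpGs was called in pLN (limma over all CpGs), 3 had an unadjusted p under 0.05, against 1633 of 24158, and the smallest adjusted p was 0.686.

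**Figure D4:**
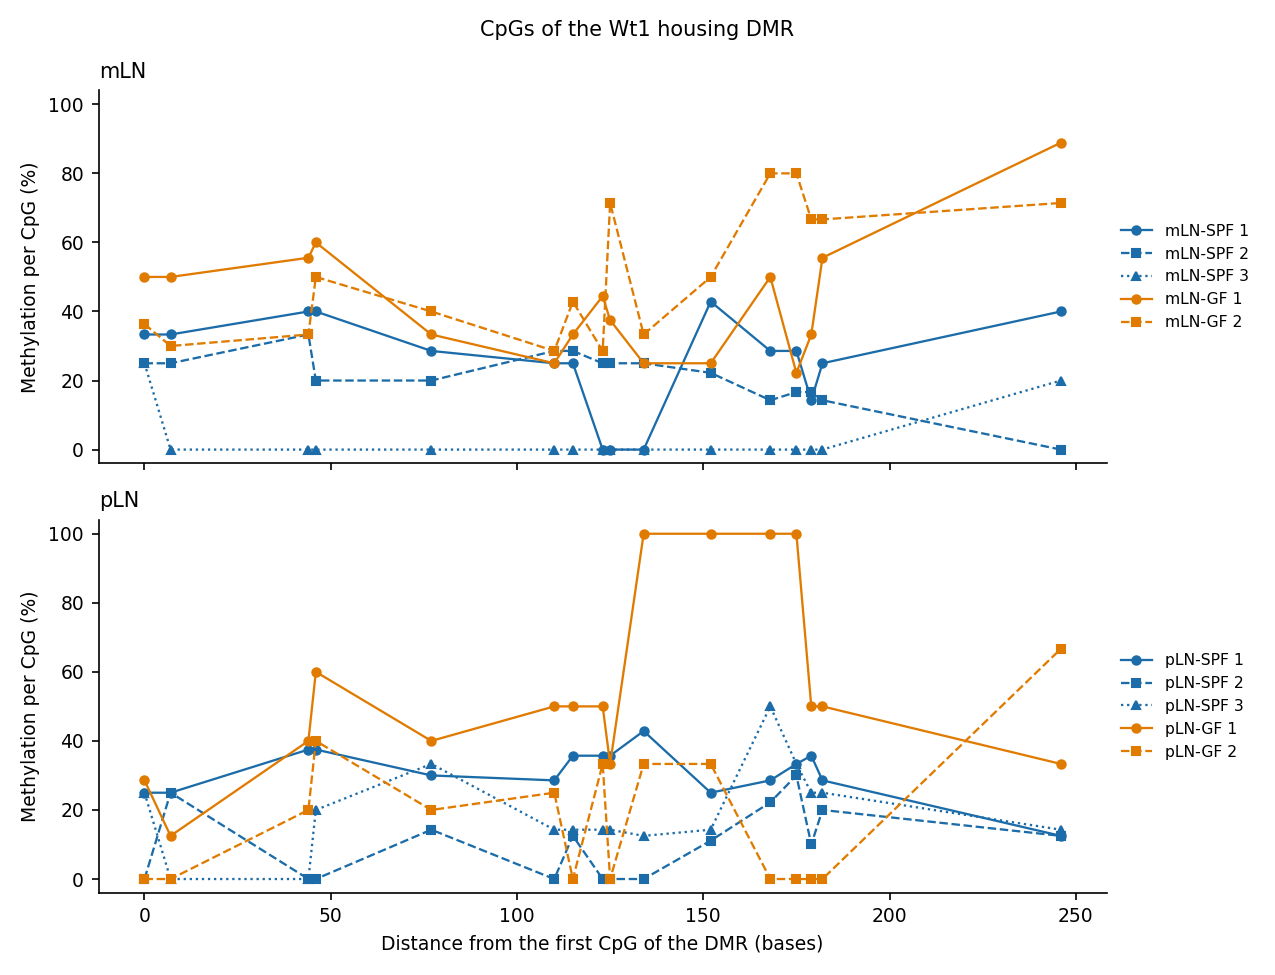
Methylation in percent (y axis) of each CpG of the Wt1 housing DMR against its distance in bases from the first CpG (x axis), for mLN (top) and pLN (bottom), 1 line per library, SPF in blue and GF in orange. Both mLN-GF lines run above most of the mLN-SPF lines, mLN-SPF 3 stays at 0% over the middle of the DMR, and in pLN the GF lines part, with pLN-GF 1 at 100% over 4 CpGs.

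The node itself made no detectable difference at the Wt1 housing DMR, which, unlike the DMRs beside it, was not listed for location. The weighted mLN minus pLN difference was 1.92 points (SE 7.25, limma adjusted p = 0.802). Group means were 16.4% ± 12.0 (SD, n = 3) in mLN-SPF, 20.1% ± 10.6 (n = 3) in pLN-SPF, 46.8% ± 5.31 (n = 2) in mLN-GF and 36.5% ± 27.7 (n = 2) in pLN-GF.

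Downstream, all 5 location DMRs of Wt1 had a higher group mean in mLN than in pLN in both housing conditions. At SPF DMR B, however, libraries of the nodes overlapped in both conditions. At SPF DMR A the mLN-SPF libraries had 66.8%, 58.0% and 65.3% and the pLN-SPF libraries 19.5%, 11.2% and 23.1%, while mLN-GF had 76.7% and 67.7% and pLN-GF 15.2% and 15.1%. GF DMR A, its inner part, had 64.8%, 60.4% and 70.4% in mLN-SPF, 15.8%, 12.2% and 21.6% in pLN-SPF, 78.0% and 65.0% in mLN-GF and 14.1% and 13.5% in pLN-GF. The lowest mLN library was thus far above the highest pLN library at both, which the selection for location fixes in part. The SPF and GF calls share this sequence, so the difference in the other housing condition (57.0 points in GF mice at SPF DMR A, 48.7 points in SPF mice at GF DMR A) is given without a test.

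Further downstream the contrast was smaller. At SPF DMR C the mLN-SPF libraries had 56.6%, 42.5% and 54.9% and pLN-SPF 24.8%, 21.5% and 28.6%; mLN-GF had 52.3% and 61.0% and pLN-GF 21.1% and 32.2%. At GF DMR B, inside it, mLN-SPF had 58.2%, 43.4% and 43.8%, pLN-SPF 21.0%, 16.2% and 32.3%, mLN-GF 49.0% and 59.3% and pLN-GF 19.0% and 34.0%. No mLN library overlapped a pLN library at either DMR, which the selection for location fixes in part. The share of all DMRs without such overlap was not counted. Single CpGs were separated between all mLN and all pLN libraries at 24 of 38 in SPF DMR A, 18 of 26 in GF DMR A, 4 of 18 in SPF DMR C and 2 of 9 in GF DMR B (18.2% of 23850 CpGs in all DMRs), counts that the selection for location fixes in part.

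SPF DMR B, of 3 CpGs, was the exception. Its unsmoothed values were 23.2%, 0% and 35.6% in mLN-SPF, 5.56%, 8.33% and 13.3% in pLN-SPF, 12.2% and 51.1% in mLN-GF and 11.4% and 28.0% in pLN-GF. The nodes overlapped in both housing conditions. In GF mice, in which it was not called, mLN minus pLN was 12.0 points (SE 12.5, limma adjusted p = 0.374, where 88.5% of DMRs were called), and the exact permutation test gave p = 0.667 (2 against 2 libraries, smallest possible p 0.333). Leaving out mLN-GF 1 gave 31.4 points (adjusted p = 0.0320) and leaving out mLN-GF 2 gave -7.48 points (adjusted p = 0.572), so single libraries set its direction; its SD in mLN-GF, 27.5 points, was exceeded at 5 of 2132 DMRs.

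**Figure D5:**
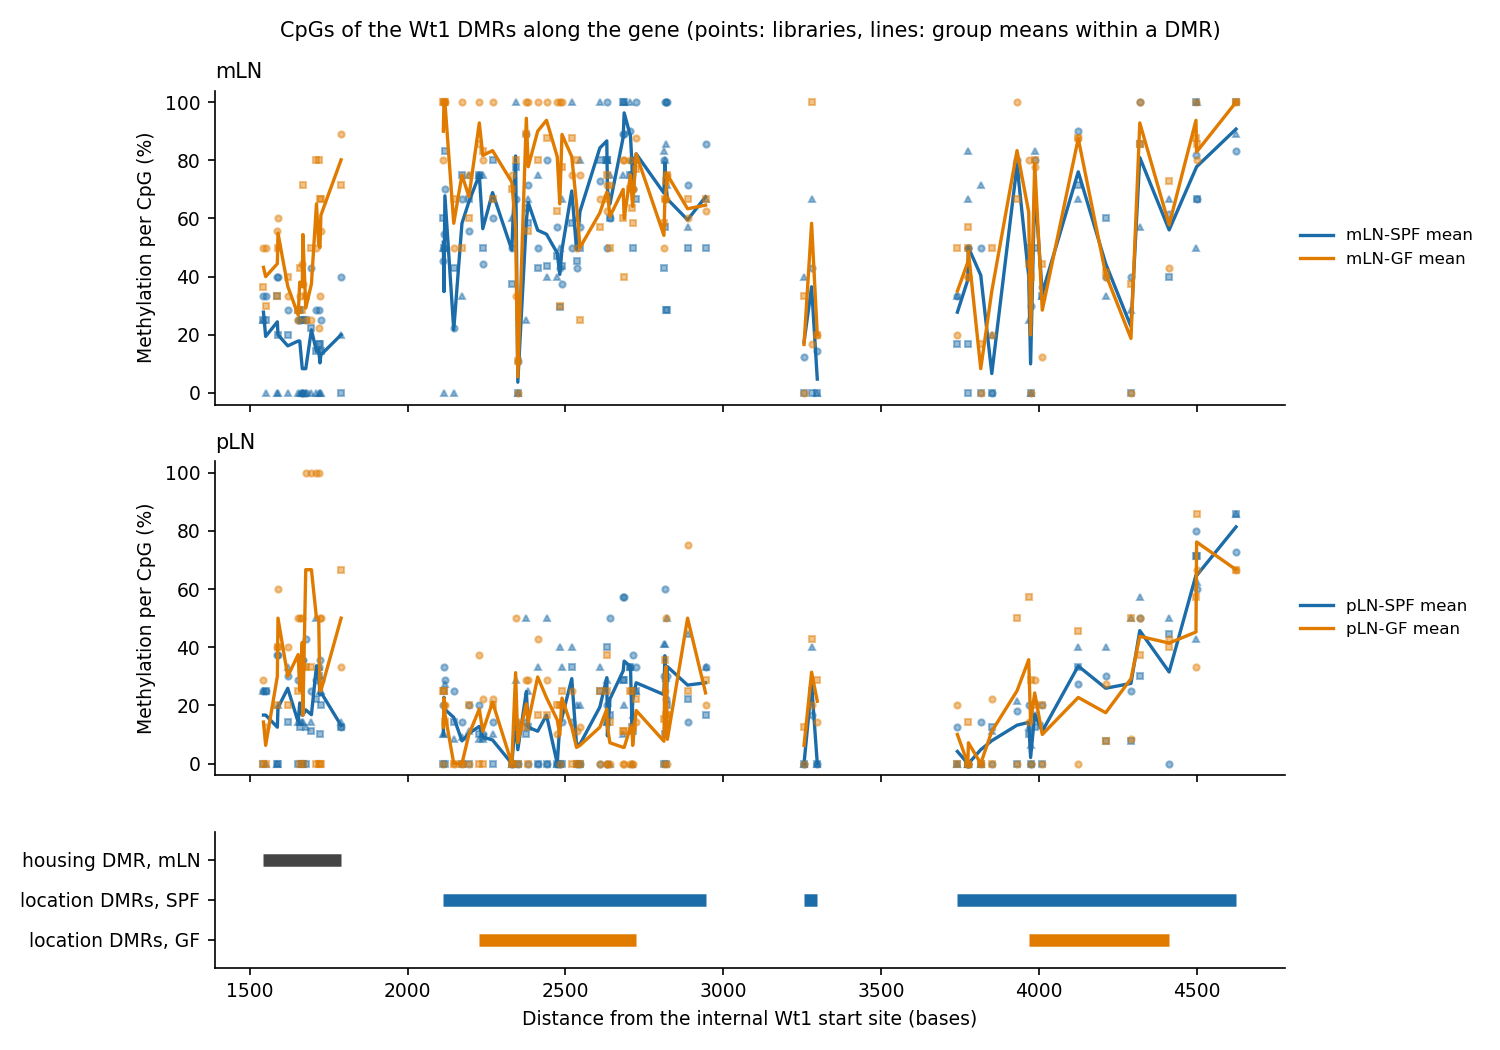
Methylation in percent (y axis) of all CpGs in Wt1 DMRs against the distance in bases from the internal Wt1 start site (x axis), for mLN (top) and pLN (middle); points are libraries and lines group means within a DMR, SPF in blue and GF in orange, and the bottom panel gives the extent of the DMRs. The mLN group means are higher over the location DMRs A than over the housing DMR, and the pLN group means are higher over the housing DMR in GF and over the last CpGs of SPF DMR C than over most of DMRs A.

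Housing did not detectably change the 5 location DMRs when averaged over both nodes, a contrast independent of the location calls. SPF minus GF was -3.01 points (SE 3.54) at SPF DMR A, -1.79 (SE 3.65) at GF DMR A, -11.4 (SE 8.04) at SPF DMR B, -3.51 (SE 3.95) at SPF DMR C and -4.54 (SE 4.80) at GF DMR B. The limma adjusted p was 0.95 or higher at each of the 5, and all 5 estimates were negative, with overlapping DMRs sharing their CpGs. At GF DMR A the sign turned without mLN-GF 1, to 1.46 points.

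Along SPF DMR A the housing difference in mLN changed sign at about exon 3, a division chosen after the values were seen and therefore not tested. Over the 19 CpGs before exon 3 (105132996 to 105133372) the mean was 53.1% ± 2.79 (SD, n = 3) in mLN-SPF and 77.6% ± 8.84 (n = 2) in mLN-GF, and 18 of 19 CpGs were higher in GF. Over the 19 CpGs from exon 3 on, it was 73.7% ± 10.2 in mLN-SPF and 66.8% ± 3.87 in mLN-GF, and 4 of 19 were higher in GF. The CpGs nearest to the housing DMR thus had the same direction as the housing DMR in mLN, as at 105132996 in exon 2 with 45.5%, 60% and 50% in mLN-SPF and 80% and 100% in mLN-GF. In pLN the same stretches had means of 12.1% ± 7.58 in SPF and 15.1% ± 4.36 in GF, and of 23.8% ± 5.24 and 15.3% ± 4.24.

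The DMRs around Wt1 shared the direction of its location DMRs. Within 200 kb of the gene, 14 location DMRs were listed, 5 of them members and 9 nearest to another gene name (6 in SPF, 3 in GF mice). All 14 were listed as more methylated in mLN, where 58.7% of all SPF and 46.7% of all GF location DMRs were. Several SPF and GF listings overlap each other, so the 14 are not 14 separate regions. No DMR other than the member was listed within 200 kb of Mindy1.

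Among 1551 merged regions whose libraries spanned at least 20 percentage points, those most like the Fam63a DMR over the 10 libraries were nearest to BC021614 (Pearson r = 0.74), Ccl1 (0.71), Tyw3 (0.67), Coq2 (0.66) and Chrnb2 (0.64). BC021614 and Chrnb2 were themselves called for housing in pLN. Those most like the Wt1 housing DMR were nearest to Psenen (0.85), Abca4 (0.81), Zdhhc25 (0.75), Mcc (0.61) and Mamdc2 (0.52), all called for location. At the Psenen region mLN-SPF had 73.1%, 66.2% and 38.9%, mLN-GF 75.9% and 84.9%, pLN-SPF 54.4%, 43.7% and 52.8% and pLN-GF 72.2% and 56.0%, so that it too was low in mLN-SPF 3 and parted in pLN-GF. The r between the Fam63a and Wt1 housing DMRs was 0.59. These r values describe 10 points that share libraries and the choice of DMRs, and carry no test.

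Of 14 gene symbols of the MINDY family and other deubiquitinases, Fam63a alone was named nearest to a DMR. Of 30 symbols of the WT1 network, 8 were named. Older and current symbols of some genes counted separately, such as Fam63a and Mindy1 or Pod1 and Tcf21. Fam63a and Wt1 were in these lists by choice. Without them 0 of 13 and 7 of 29 symbols were named, where 3.17% of 21924 protein-coding genes of the annotation were. The lists were drawn up with earlier results of these data known, so these shares describe the lists and are no test of enrichment. The 8 genes accounted for 31 SPF location DMRs, 14 of them higher in mLN, and 32 GF location DMRs, 13 of them higher in mLN. Tcf21, a transcription factor of visceral mesenchyme, had 6 DMRs in SPF and 6 in GF mice, all higher in mLN as at Wt1, and Nkx3-2, a homeobox gene of splanchnic mesoderm, had 4 and 4, all higher in mLN. Emx2 (12 of 13 in SPF and 9 of 9 in GF mice), Tbx18 (4 of 4 and 7 of 7) and Osr1 (1 of 1 and 1 of 1) had lower methylation in mLN, as did the 2 GF DMRs of Aldh1a2; Lhx9 had 1 higher in GF mice. Wt1 was the only gene of this list with a DMR for housing.

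The tables hold CpGs in DMRs only, so the cell types in the sort could not be checked by the methylation of most marker genes. A DMR was nearest to 2 of 10 mesothelial markers (Wt1 itself and Lrrn4, which was lower in mLN-SPF than in pLN-SPF), 1 of 6 markers of fibroblastic reticular cells (Cxcl13, higher in mLN-SPF), 1 of 5 of CD34+ stromal cells (Aldh1a2), 0 of 4 endothelial, 0 of 4 haematopoietic and 0 of 3 perivascular markers. Whether the share of mesothelial cells moved with the Wt1 values was not tested.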

How the data were processed

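The authors aligned bisulfite reads to GRCm38 (per the labels BSMAP 2.4.3, cutadapt 1.4 and FastQC 0.11.1), smoothed CpG methylation with bsseq and called DMRs between pairs of groups. Their deposited CpG table gives unsmoothed methylation as a fraction of reads per library. From the deposited DMR tables the positions, CpG numbers, directions and nearest genes were used. The columns with smoothed group means, their difference and a summed test statistic hold the authors' own comparison and were not used. Calls rest on smoothed values, so the unsmoothed means given here can differ more or less than a call implies. The authors' CpG number of a DMR can be lower than the CpGs in the table (28 against 36 at Fam63a, 14 against 26 at Wt1 GF DMR A). All 24182 positions carried CG in GRCm38. The reference is C57BL/6J and the mice were BALB/c, and sites that differ between the strains were not removed here.

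Each fraction was turned into percent (times 100), and the CpGs inside a DMR were averaged per library; 24158 CpGs measured in 1 or more libraries of all 4 groups were kept. DMRs and CpGs were fitted with limma 3.58.1 in R 4.3.3 (4 group means, percent scale, empirical Bayes, no block), with Benjamini-Hochberg adjustment over all 2132 DMRs or 24158 CpGs and a threshold of 0.05. Fam63a was tested in mLN and the Wt1 housing DMR in pLN. The location contrast at housing DMRs weighted SPF and GF libraries by their numbers (3 to 2), and the housing contrast at location DMRs was the mean over both nodes. These weights make each contrast independent of the one that called the DMR if the libraries are independent, which is not known. The SE of limma pools the spread of all 4 groups, including those that called the DMR. Exact permutation tests were exhaustive and two-sided. The fits were tested on simulated data. Replicates of a group had identical values at 11.4% to 14.2% of CpGs and were kept apart. Members and gene lists were chosen with earlier results of these data known. One gene of the WT1 network list is not reported here and was left out of its counts. All DMRs of both genes are named; single CpGs of the housing DMRs are named where they are the first, the last or the largest or smallest difference in the node of the call, and others after their values were seen. Regions alike are the 5 with the highest r among merged regions spanning at least 20 points. Annotation was GENCODE vM21 and sequence RefSeq GRCm38.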

Additional observations from a re-analysis of the deposited data

How the results depend on the processing

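The tests at Fam63a and Wt1 were repeated on the logit scale (fractions kept 0.01 from 0 and 1), with CpGs valued in all 10 libraries, with medians over CpGs, over merged regions, over DMRs of at least 5 CpGs, with the replicate number as a block, without each library, and for CpGs with trend and robust variance. Of 196 values, 183 kept both direction and call, or a similar count. A further 8 turned in sign and 4 were counts that moved more. The last, at SPF DMR B in GF mice without mLN-GF 1, kept its direction at 31.4 points against 12.0. With each library left out in turn, SPF minus GF ran from -18.9 to -5.41 points at Fam63a in mLN and from -36.0 to 3.12 at the Wt1 housing DMR in pLN (positive without pLN-GF 1), and mLN minus pLN in GF mice at SPF DMR B from -7.48 to 31.4. The housing difference over both nodes at GF DMR A ran from -5.05 to 1.46, and mLN minus pLN at the Wt1 housing DMR from -5.91 to 9.74, with -0.74 without mLN-SPF 1 and -1.16 without pLN-SPF 2. On the logit scale mLN minus pLN turned to 0.21 at Fam63a and -0.12 at the Wt1 housing DMR; the cause was not tested. CpGs with all GF above all SPF libraries numbered 9 to 25 at Fam63a in mLN and 3 to 14 at the Wt1 housing DMR in pLN. SPF DMR B has 3 CpGs and gave no value among DMRs of at least 5 CpGs.

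Deviations of same-numbered libraries from their group means correlated weakly (r between -0.03 and 0.04). Such values cannot show whether same-numbered libraries share animals or an experiment. Pairing is therefore unknown, and the main fits treated the libraries as unpaired. With the replicate block the differences were -13.5 points at Fam63a in mLN (adjusted p = 0.814) and -12.9 points at the Wt1 housing DMR in pLN (adjusted p = 0.837), and the block changed no call. Fits without 1 GF library leave a group of 1, which is assumed to vary like the other groups. With 2 GF libraries a node, no permutation test could reach p = 0.05.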
